A study of Mus musculus with 9 samples.

Results

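Type 2 conventional dendritic cells (cDC2) of the spleen were compared between young and adult mice in the 6 libraries that carry the label TOM+ cDC2, out of 9 libraries in the series. The 3 young libraries came from mice at postnatal day 8. The 3 adult libraries came from mice of 9 weeks (replicate 1) and 8 weeks (replicates 2 and 3). All mice were on a C57BL/6 background and carried the Clec9a-Cre/Cre and Rosa-tdTomato/tdTomato alleles, so that both copies of Clec9a, which encodes the receptor DNGR-1, are taken by Cre at both ages. Cre is driven by the Clec9a locus, and a TOM+ cell is one that has expressed it or descends from a progenitor that did. CD11c-enriched spleen cells were sorted as live, single, autofluorescence-negative, MHCII+ CD11c+ CD11b+ TOM+ cells. Young spleens were pooled to obtain enough cells. The remaining 3 libraries hold TOM- DC2 of mice of the same genotype at postnatal day 8. They enter the filter on low counts, the normalization and the estimate of the spread, but not the contrast. With the 6 TOM+ libraries alone, 14240 genes were tested. All 24054 genes listed in the files belong to the comparison, and 14452 of them had enough reads to be tested.

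cDC2 sample their surroundings with pattern recognition receptors, load peptides on MHC class II and instruct CD4 T cells through costimulatory ligands and cytokines. They arise from dividing bone marrow progenitors and, in the adult spleen, divide into a NOTCH2-dependent ESAM-high population near the marginal zone and an ESAM-low population with more myeloid genes. Type I interferon acts on genes through ISRE elements, interferon-gamma through GAS elements, and dividing cells transcribe replication genes through E2F and mitosis genes through the CHR element.

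Reads counted on genes ranged from 16128082 to 19661754 in the young TOM+ libraries and from 12783252 to 16809639 in the adult ones. Reads on no annotated feature made up 8.84% to 11.8% of a young library and 15.2% to 17.1% of an adult one, and multimapping reads 12.9% to 13.4% and 10.4% to 10.8%. The part that these shares and the libraries' age play in the results was not tested. Summed over 10 genes, the cDC markers reached 80400.5 to 85134.5 TPM (a level per transcript length and library size) in young and 122942 to 125428 TPM in adult libraries. The MHC class II genes Cd74, H2-Ab1, H2-Aa and H2-Eb1 made up nearly all of this sum. Cd74 alone had a mean of 44852 TPM in young and 63199 TPM in adult libraries. Outside class II, Itgax had 360 and 456 TPM and Flt3 190 and 256 TPM. Zbtb46, the transcription factor of the cDC lineage, stood at 142 ± 15.4 (SD, n = 3) and 138 ± 4.48 TPM. Among genes of other cells, Xcr1 of cDC1 had 3.30 and 2.64 TPM, Siglech of plasmacytoid cells 0.417 and 0.88 TPM and Ly6c2 of monocytes 1.15 and 1.22 TPM. Their whole lists summed to more: 12 cDC1 markers to 417 to 456 TPM in young and 396 to 431 TPM in adult libraries, 12 plasmacytoid markers to 234 to 271 and 280 to 292 TPM, and 10 monocyte markers to 1430 to 1486 and 1164 to 1266 TPM. Of these, Cadm1 (log2 fold change, young minus adult, 1.56), Naaa (1.14) and Ccr2 (1.01) were called (beyond 1 on the log2 scale with an adjusted p under 0.05) as higher in young cells and Irf8 (-1.10), Cd8a (-2.47) and Ms4a4c (-1.11) higher in adult cells. The 15 markers of group 3 innate lymphoid cells summed to 184 to 239 TPM in young and 393 to 480 TPM in adult libraries. Kit, also a cDC marker, alone had 169 and 313 TPM. Of the 13 tested, 6 were called higher in adult cells (46.2%, beside 6.86% of all genes): Kit, Tcf7, Ccr6, Lta, Il23r and Gata3. Il1r1 was called higher in young cells. The part of such cells in the results was not tested. The 12 erythroid genes summed to 53.1 to 97.0 TPM in young and 1.39 to 13.5 TPM in adult libraries, and young replicate 1 alone held 4.49 TPM of Col3a1, a collagen of stromal cells, against 0.16 and 0.02 in the other 2 young libraries. Clec9a itself had at most 0.34 TPM in any library. Among 5 sex genes, Xist was listed at 0 TPM in all 6 libraries. The 4 that were tested all passed the adjusted p as higher in adult cells, with a median log2FC of -0.59, and Ddx3y was called. The 5 summed to 135 to 153 TPM in young and 197 to 250 TPM in adult libraries. The part of sex in the results was not tested. Bulk libraries cannot tell fewer cells of one kind from less RNA per cell, and since the labels do not say that libraries of a group came from separate animals, p-values measure the spread between these samples only.

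Many genes differed between the ages. A gene was called where the fold change passed 2 (a log2 fold change, log2FC, beyond 1, written as young minus adult) and the adjusted p of edgeR's quasi-likelihood test with Benjamini-Hochberg adjustment was under 0.05. By this rule 862 genes were higher in young cells (5.96% of those tested) and 991 higher in adult cells (6.86%), 1853 in all (12.8%). Counts of called list members below are to be read beside these shares. The lists and their members were chosen with earlier results of these data known, so that an excess over these shares is no independent evidence. Without young replicate 1 the counts were 857 and 1011. The adjusted p alone was passed by 5861 genes (40.6%), and the normalized counts of the ages did not overlap for 7379 genes (51.1%), so that a lack of overlap is common in this comparison. The median log2FC of all tested genes was 0.05. Genes higher in adult cells took 8.58% ± 0.263 (SD, n = 3) of all TPM in adult libraries and 3.52% ± 0.0795 in young ones. Genes higher in young cells took 2.60% ± 0.102 in young and 0.937% ± 0.0778 in adult libraries. Beyond a log2FC of 4, 86 genes were higher in young and 36 higher in adult cells, with genes of few reads included. Of all called genes, 691 averaged under 50 counts. The excess on the young side was absent among genes that averaged 50 counts or more and did not overlap between the ages. There the rises beyond 4 ended at Dgkg (4.66), followed by Acpp (3.74). The falls ended at Gpr4 (-4.41), followed by Ikzf3 (-3.68).

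**Figure D1:**
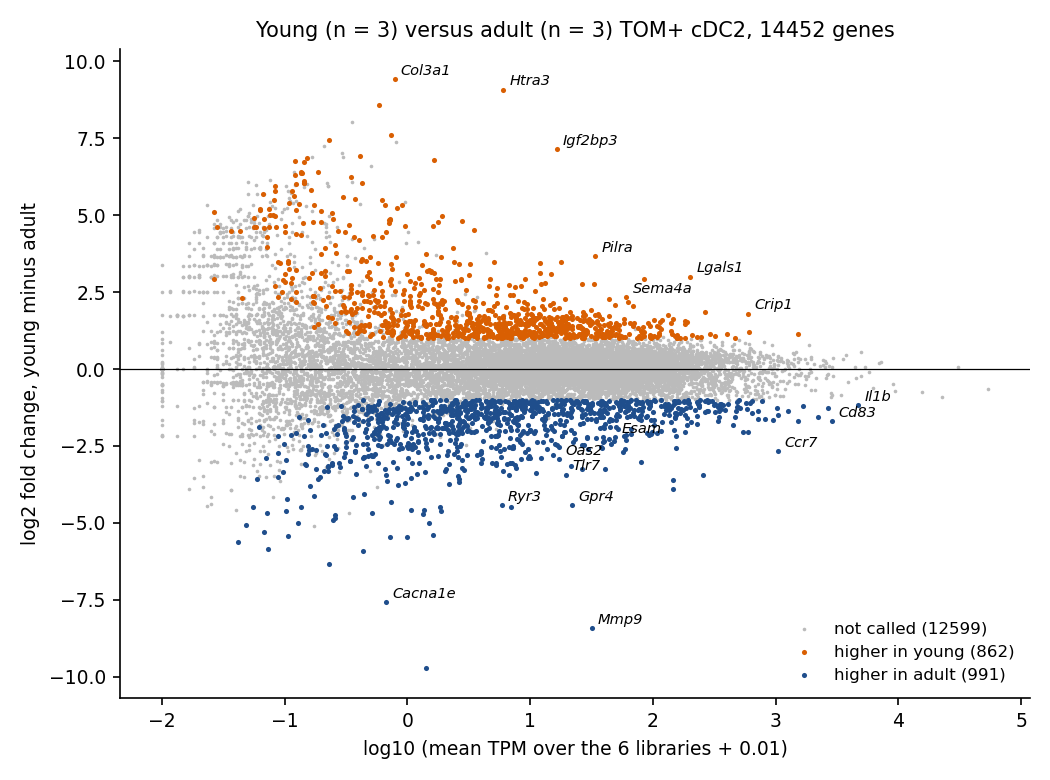
Each point is 1 of 14452 tested genes, with its mean TPM over the 6 libraries on a log10 axis and the log2 fold change (young minus adult) on the vertical axis; orange marks the 862 genes called higher in young and blue the 991 called higher in adult cells. Col3a1, which rests on 1 young library, and Htra3 and Igf2bp3 stand at the top, Slc9a2 and Mmp9 at the bottom, and the most abundant called genes, Il1b and Cd83, lie on the adult side.

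Among the largest rises in young cells was Igf2bp3 (chromosome 6, 49085218-49215469, build GRCm38), an RNA-binding protein of fetal tissues that stabilizes growth mRNAs. Its level was 33.3, 31.8 and 32.9 TPM in the young libraries and 0.12, 0.22 and 0.24 TPM in the adult ones. The young libraries agreed closely and stood far above every adult library, with a log2FC of 7.15 (SE 0.16, adjusted p = 1.13e-10), a 142-fold difference. Young TOM- DC2 held 35.6, 33.1 and 30.7 TPM. Its relative Igf2bp2 was also called, but rested on 8, 9 and 10 counts against 0 in each adult library, which makes it at least 2.01-fold higher. Igf2bp1, Lin28a, Lin28b, H19, Igf2 and Dlk1, which mark fetal growth programmes, did not have enough reads to be tested. Of the 15 tested genes of this early-life list, 2 were called higher in young and 2 in adult cells. The adult calls were Plagl1, which sat at the threshold and lost the call without young replicate 1, adult replicate 1 or adult replicate 2 (log2FC -0.84, -0.94 and -0.87), and Zfp57, a regulator of imprinted loci with 0.03 TPM in young and 0.843 TPM in adult cells. The median log2FC of the list was 0.15, and 0.00 with the members at the floor of 3 counts set to their bound. It moved by over 1.5 times without any 1 library other than adult replicate 1, from 0.047 without young replicate 1 to 0.29 without adult replicate 3.

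Genes with at least 50 counts in every library of one age and at most 3 in every library of the other numbered 6. Htra3, a secreted serine protease, had 249, 397 and 372 counts in young and 0, 1 and 0 in adult libraries, at least 76.5-fold higher in young cells. Ak8, Sec16b and Phactr1 followed at least 14.7-, 14.2- and 13.4-fold higher. On the adult side, Cacna1e, a voltage-gated calcium channel subunit, had 113, 138 and 193 counts against 2, 0 and 1, at least 71.5-fold lower in young cells. Slc9a2, a sodium and proton exchanger, had 64, 78 and 103 counts against 0 in each young library, at least 39.6-fold lower.

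Other large rises in young cells were genes of receptors at the cell surface. Pilra, an inhibitory receptor of myeloid cells, had 63.9, 64.0 and 61.2 TPM in young and 4.71, 5.31 and 3.87 TPM in adult libraries (log2FC 3.67, SE 0.13, adjusted p = 6.63e-09). Cysltr1, a receptor for cysteinyl leukotrienes, had 34.9, 32.9 and 31.0 TPM against 2.70, 2.69 and 2.63 TPM, an 11.2-fold difference. Both genes were nearly constant within each age. Adora3, an adenosine receptor, stood at 9.25 ± 0.531 TPM in young and 0.90 ± 0.121 TPM in adult cells, and Smo, the signal transducer of the hedgehog pathway, at 3.51 ± 0.675 and 0.253 ± 0.133 TPM. The diacylglycerol kinase Dgkg (log2FC 4.66), the phosphatase Acpp (3.74) and the neuronal RNA-binding protein Elavl4 (4.78) completed the largest rises that were shared by the 3 young libraries. Col3a1, Col4a1 and Sparc, all genes of the extracellular matrix, also passed the rule, but lost the call without young replicate 1 (adjusted p = 0.123, 0.224 and 0.107), which held 296 Col3a1 counts against 9 and 1 in the other young libraries. They lost it as well without any 1 of the 3 adult libraries, with adjusted p between 0.0717 and 0.132.

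The largest falls held a metalloprotease, channels and signalling proteins. Mmp9, which degrades matrix, had 0.17, 0.06 and 0.32 TPM in young libraries and 48.5, 34.7 and 107 TPM in adult ones (log2FC -8.41, SE 0.56, adjusted p = 6.04e-07). The adult libraries differed among themselves but all stood far above the young, and young TOM- DC2 lay between, at 12.9, 7.9 and 14.7 TPM. Ryr3, a calcium release channel, had 0.68, 0.50 and 0.49 TPM in young and 9.23, 10.8 and 13.4 TPM in adult cells, a 21.3-fold difference. Gpr4, a proton-sensing receptor, had 2.65, 1.90 and 1.91 TPM against 52.5, 45.0 and 28.6 TPM, a 21.2-fold difference. The scaffold Dlg2 (log2FC -5.45), Dzip1 (-5.40), Sel1l3 (-4.61), the kinase Blk (-4.47), the lymphoid transcription factor Ikzf3 (-3.68), Enpp5 (-3.56) and Tmem132c (-3.49) followed. Lyz1 (-3.59) is uncertain in size: it shares reads with Lyz2, and counts that divide such reads between copies gave -1.51.

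Ranked by the difference in TPM among called genes, the gains had other members. Il1b, the inflammatory cytokine interleukin 1 beta, had 2686, 3276 and 3179 TPM in young and 5365, 6486 and 7077 TPM in adult libraries (log2FC -1.17, adjusted p = 6.26e-05). Cd83, which stabilizes MHC class II at the surface, had 1438, 1368 and 1564 TPM against 4039, 4063 and 4831 TPM (log2FC -1.68). Each adult library exceeded each young one for both genes. H2-K1 and H2-D1, the classical MHC class I heavy chains, the migration receptor Ccr7, the chemokine Ccl4, the decoy receptor Il1r2, and Btg2, Rgs1 and Rrad made up the rest of the 10 largest gains among genes called higher in adult cells. The 10 largest gains among genes called higher in young cells were Tuba1b, Stmn1, Tagln2, Vim, Crip1, Anxa2, S100a10, Lgals1, Lgals3 and Rrm2. Tuba1b, a tubulin, had 2004, 2070 and 2136 TPM in young and 913, 1129 and 797 TPM in adult libraries. Crip1, a LIM domain protein, had 600, 1165 and 1095 TPM against 229, 268 and 230 TPM (log2FC 1.81), so that the young libraries varied more than the adult ones and still did not overlap with them.

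**Figure D2:**
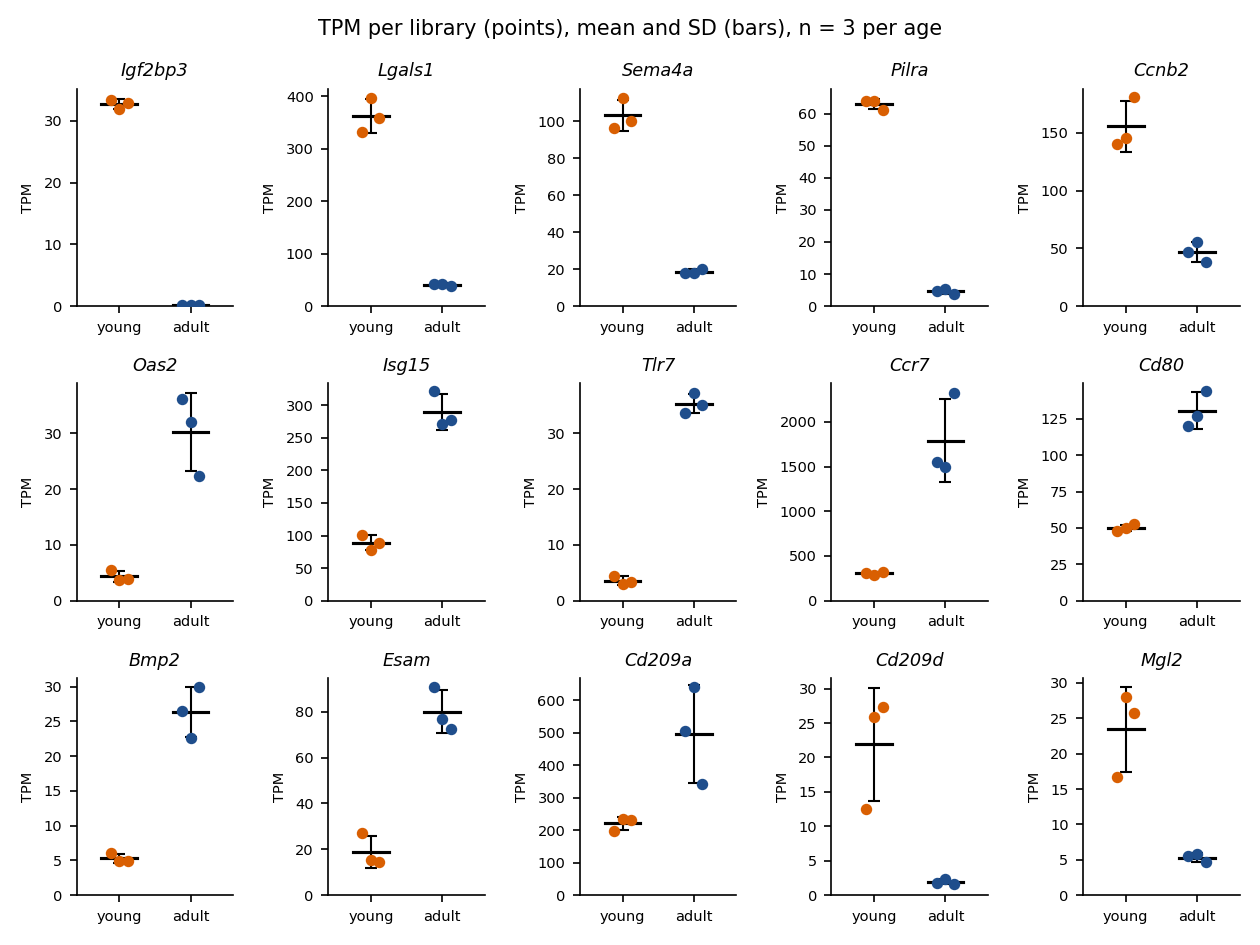
TPM of 15 genes in each of the 3 young (orange) and 3 adult (blue) TOM+ libraries, with bars at the mean and SD; every vertical axis starts at 0. No gene shown overlaps between the ages: Igf2bp3, Lgals1, Sema4a, Pilra, Ccnb2, Cd209d and Mgl2 were higher in young cells and the other 8 higher in adult cells.

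Genes of DNA replication were higher in young cells. Of 47 tested members, 26 were called higher in young and 0 in adult cells, beside 5.96% and 6.86% of all genes, 44 passed the adjusted p in the young direction, and the median log2FC was 1.06. Rrm2, a subunit of the enzyme that makes deoxynucleotides, had 282, 281 and 293 TPM in young and 81.4, 116 and 77.2 TPM in adult libraries (log2FC 1.52, adjusted p = 8.36e-06). Uhrf1, which carries DNA methylation through replication, had a log2FC of 1.40, and Gins1, of the replicative helicase, 1.40. The helicase genes Mcm2, Mcm3, Mcm5, Mcm6 and Mcm7 lay between 1.01 and 1.10 and were called, whereas Mcm4 (0.93) passed the adjusted p alone. Pcna, the sliding clamp, did not pass, with 373 and 270 TPM and a log2FC of 0.26 (adjusted p = 0.0710).

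Mitosis genes moved further. Of 47 members, 43 were called higher in young cells and 0 in adult cells, with a median log2FC of 1.40. Mybl2, the MYB protein that works with FOXM1 on mitosis genes, had 21.8, 21.8 and 19.5 TPM in young and 4.89, 5.79 and 4.68 TPM in adult libraries (log2FC 1.97, SE 0.15, adjusted p = 1.58e-06). Ccnb2, a B-type cyclin, had 140, 146 and 181 TPM against 47.2, 55.8 and 38 TPM, a 3.04-fold difference. The kinesin Kif20a, the ubiquitin-conjugating enzyme Ube2c and the cohesin protector Sgol1 had log2FC of 1.78, 1.75 and 1.75. Mki67, the usual marker of cycling cells, had 31.5 ± 5.38 TPM in young and 13 ± 2.0 TPM in adult cells (1.15). The exceptions were Espl1, Smc4 and Bub3, which passed the adjusted p alone with log2FC of 0.89, 0.59 and 0.32, and Pttg1, which encodes securin and had the opposite sign (92 TPM in young and 139 TPM in adult cells, log2FC -0.67, adjusted p = 0.000195).

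The promoters of these genes were searched for the elements named above, in windows from 250 bases before to 50 after each start site (RefSeq, GRCm38.p6), on both strands. An E2F element (TTTCCCGC, TTTCGCGC, TTTGCCGC or TTTGGCGC) was present for 15 of the 38 replication genes with a window (39.5%) and for 4.58% of the 11313 tested genes with a window. The CHR element TTTGAA was present for 28 of 39 mitosis genes (71.8%) beside 14.8% of tested genes, and CCAAT for 29 of 39 (74.4%) beside 42.8%. Among called members with a window, 9 of 21 replication genes held the E2F element and 26 of 36 mitosis genes the CHR element. The list shares cover members whether called or not, so they describe the lists and not the change with age. A match is a description of the letters, and genes with several start sites have several windows. Capitals mark the match in the following stretches, taken from the called members with the largest log2FC that hold one before the start site. The match begins 185 bases before the start for Uhrf1 (chr17:56304068-56304195, + strand) and 138 for Cdc6 (chr11:98907953-98908080, + strand), both E2F, 29 for Ube2c (chr2:164769840-164769928, + strand) and 30 for Ncapg (chr5:45669835-45669924, + strand), both CHR. The match lies on the opposite strand in Cdc6 and Ube2c.
Uhrf1: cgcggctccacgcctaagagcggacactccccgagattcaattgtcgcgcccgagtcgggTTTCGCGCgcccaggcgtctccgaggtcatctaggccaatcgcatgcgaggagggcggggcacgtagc
Cdc6: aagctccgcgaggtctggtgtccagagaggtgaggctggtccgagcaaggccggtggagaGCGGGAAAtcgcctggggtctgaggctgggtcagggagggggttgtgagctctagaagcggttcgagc
Ube2c: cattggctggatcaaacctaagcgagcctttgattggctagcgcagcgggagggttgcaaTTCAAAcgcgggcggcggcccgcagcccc
Ncapg: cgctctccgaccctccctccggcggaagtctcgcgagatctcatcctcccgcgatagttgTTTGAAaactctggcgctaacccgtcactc

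Genes of ribosome biogenesis and of the respiratory chain were higher in young cells by less than the fold threshold. Among 42 ribosome biogenesis genes, 30 passed the adjusted p in the young direction and 0 in the adult direction (beside 21.0% and 19.5% of all genes), all 42 had a log2FC above 0, the median was 0.44 and the lone call was Pa2g4, a growth-linked nucleolar protein, at 1.09, which fell under the threshold without young replicate 2 (0.988) or adult replicate 2 (0.996). Npm1, the nucleolar chaperone, had 441 ± 24.4 TPM in young and 259 ± 12.9 TPM in adult cells. Among 46 respiratory chain genes 34 passed in the young direction and 0 in the adult direction, with a median of 0.39 and no member called. Glycolysis genes were mixed. Tpi1 (272 ± 16.6 and 90.9 ± 3.31 TPM, log2FC 1.45) and the lactate transporter Slc16a1 (1.37) were higher in young cells, and the enolases Eno2 (-2.73) and Eno3 (-2.04) and the regulator Pfkfb3 (-1.55) higher in adult cells, with a median of 0.20 over 26 genes, or 0.12 without adult replicate 3. Of 29 cholesterol genes 2, Pmvk of the mevalonate pathway (-1.14) and the exporter Abcg1 (-1.06), were called, both higher in adult cells (6.9% of the list beside 6.86% of all genes), and the median was 0.05. Abcg1 lost the call without young replicate 2 (-0.95).

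Type I interferon-induced genes had the lowest median of the 28 lists. Of 59 tested interferon-induced genes, 35 were called higher in adult cells and 0 in young cells, beside 6.86% and 5.96% of all genes, and 57 passed the adjusted p in the adult direction. The median log2FC was -1.14. Oas2, which senses double-stranded RNA and activates RNase L, had 5.41, 3.68 and 3.94 TPM in young and 36.1, 32.1 and 22.4 TPM in adult libraries (log2FC -2.93, SE 0.21, adjusted p = 1.01e-06). Isg15, the ubiquitin-like modifier, had 101, 78.3 and 88.3 TPM against 321, 271 and 278 TPM, a 3.53-fold difference. The young libraries did not overlap with the adult ones for either gene, though Oas2 varied among adults. Ifi44 (-4.58), Pydc4 (-3.06) and Oas1g (-2.75) completed the largest falls of the list, but Ifi44 was low, at 0.127 and 2.61 TPM.

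Regulators of the response had the same direction. Irf7, the amplifier of interferon production, had 44.4 ± 5.87 TPM in young and 170 ± 14.4 TPM in adult cells (-2.08), and Usp18, which limits signalling at the receptor, 36.8 ± 3.99 and 149 ± 15.4 TPM (-2.13). Irf9 (-0.96) and Stat2 (-0.78) passed the adjusted p alone. Ifnar2, a receptor chain, did not pass (149.7 and 162 TPM, adjusted p = 0.979), and the other chain, Ifnar1, had a log2FC of -0.22. Ifi203 (0.00, adjusted p = 0.989) and Eif2ak2 (-0.22) were the 2 members that did not pass. Ifnb1 had too few reads to be tested.

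Interferon-gamma-induced genes followed to a lesser extent. Of 41 tested members, 14 were called higher in adult cells and 0 in young cells, and 26 passed the adjusted p in the adult direction and 1, Gbp7 (0.36), in the young direction. The median was -0.95, and -0.78 with 4 genes near 0 counts set to their bound. The GTPases Tgtp1 and Tgtp2, near-identical copies that share reads, had 2.05 and 15.0 TPM in young and 20.3 and 76.2 TPM in adult cells. Cxcl9, a ligand of CXCR3 on T cells, had 3.01, 2.52 and 3.03 TPM against 12.3, 11.9 and 13.8 TPM (-2.28, adjusted p = 3.26e-07), and Nlrc5, the transactivator of MHC class I, 8.12 ± 1.10 and 30.3 ± 3.92 TPM (-2.06). Not all members followed: Icam1 (-0.07), Psmb8 (0.10) and Ciita (0.26), the transactivator of MHC class II, did not pass. Gbp10 was called on 1, 1 and 5 counts and lost the call without any 1 library other than adult replicate 3 (adjusted p = 0.0632 to 0.0977).

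The ISRE core GAAANNGAA, where N is any base, was found for 27 of 44 type I interferon genes with a promoter window (61.4%) and 8.80% of tested genes. Of the 27 called type I interferon genes with a window, 17 held it. The GAS core TTCNNNGAA was found for 11 of 27 interferon-gamma genes (40.7%) and 8.14% of tested genes. Of the 9 called interferon-gamma genes with a window, 3 held it, among them the near-identical copies Tgtp1 and Tgtp2. The stretches of both copies below also hold an ISRE core, in small letters just after the GAS match. The stretches of the members with the largest log2FC that hold a match before the start site follow, with the match in capitals, from Pydc4 (chr1:173599277-173599405, - strand, 73 bases before the start) and Oas1g (chr5:120887614-120887691, - strand, 18 bases, where a pair of overlapping matches lies), both ISRE, and Tgtp1 (chr11:48992266-48992394, - strand, 88 bases) and Tgtp2 (chr11:49064225-49064353, - strand, 81 bases), both GAS.
Pydc4: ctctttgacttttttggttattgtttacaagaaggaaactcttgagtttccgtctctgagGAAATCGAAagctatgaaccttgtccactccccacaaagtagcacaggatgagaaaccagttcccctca
Oas1g: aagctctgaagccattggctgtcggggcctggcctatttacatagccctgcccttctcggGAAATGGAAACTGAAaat
Tgtp1: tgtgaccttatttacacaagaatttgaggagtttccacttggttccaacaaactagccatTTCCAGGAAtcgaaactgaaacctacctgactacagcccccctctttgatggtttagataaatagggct
Tgtp2: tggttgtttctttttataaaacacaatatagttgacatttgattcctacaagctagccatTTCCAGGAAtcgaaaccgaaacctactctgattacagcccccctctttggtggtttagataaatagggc

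**Figure D3:**
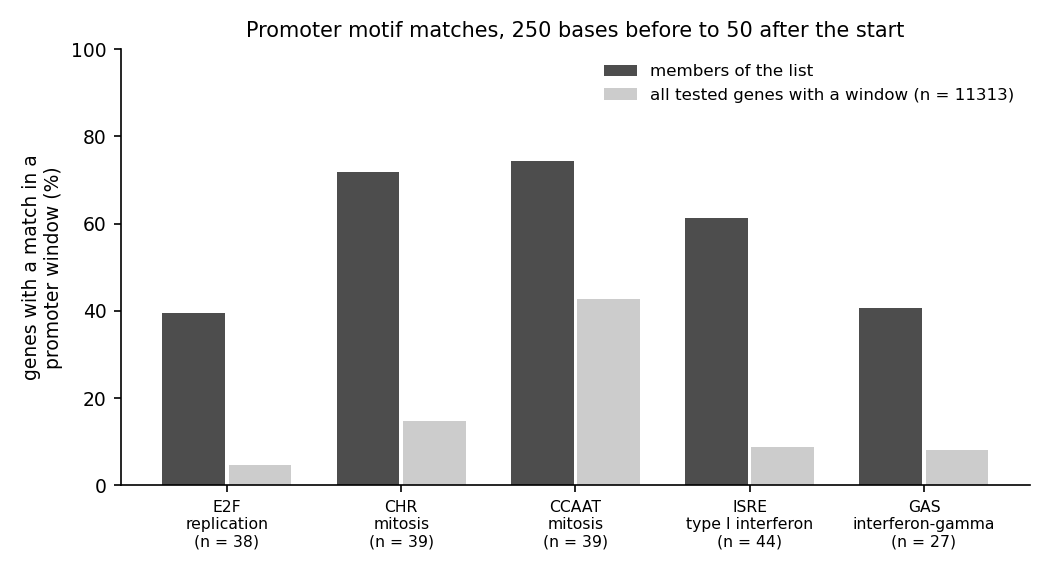
Bars give the percentage of genes with a promoter window that hold each element, for members of the gene list (dark) and for the 11313 tested genes with a window (light). The E2F, CHR, ISRE and GAS shares of the lists are 39.5%, 71.8%, 61.4% and 40.7%, beside 4.58%, 14.8%, 8.80% and 8.14% of tested genes.

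Targets of TNF and NF-kB were mostly on the adult side. Of 51 tested members, 17 were called higher in adult cells (33.3%, beside 6.86% of all genes). In young cells 3 were called higher (5.88%, near the 5.96% of all genes), and the median log2FC was -0.62. Ccl5, a chemokine for T cells, had 253, 280 and 210 TPM in young and 903, 853 and 1041 TPM in adult libraries (-2.04, adjusted p = 3.26e-07). Relb, the NF-kB subunit needed for cDC2 of the spleen, had 204 ± 19.8 and 483 ± 53.3 TPM (-1.37), and the signalling adaptor Traf1 288 ± 17.9 and 665 ± 112 TPM (-1.35). Tnf itself had 137 and 195 TPM and did not pass (-0.62, adjusted p = 0.149). The 3 young calls were Ccl17 (2.91), Cxcl1 (1.80) and Tnip3 (1.46), and the first 2 depended on single libraries. Ccl17 lost its call without young replicate 3, adult replicate 1 or adult replicate 3 (adjusted p = 0.0589, 0.0554 and 0.0702), and Cxcl1 without any 1 library other than young replicate 1 (0.0556 to 0.142).

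IL-2- and STAT5-induced genes were divided, with 12 of 45 called higher in adult and 4 in young cells and a median of -0.46. Tnfrsf4, which encodes OX40 (-2.90), Icos (-1.97) and Socs2, a feedback inhibitor of cytokine receptors (-1.82), were higher in adult cells. Adult replicate 3 stood above the other adult libraries for Tnfrsf4 (27.6 against 11.2 and 13.3 TPM) and Socs2 (42.6 against 22.5 and 21.9 TPM). Both stayed called in all 17 other settings. The STAT5-induced inhibitor Cish had 13.4, 17.4 and 20.1 TPM in young and 3.94, 4.60 and 3.40 TPM in adult libraries (1.99), the actin-capping protein Capg 21.5 ± 2.21 and 2.80 ± 1.02 TPM (2.77), and both were higher in young cells, as were the IL-33 receptor Il1rl1 (2.87) and Ctla4 (3.17, on at most 31 counts), whose call was lost without any 1 library other than young replicate 1 (adjusted p = 0.0538 to 0.0970). Of 18 receptor and kinase genes for these cytokines, 5 were called, all higher in adult cells: Il21r (-1.51), Tnfrsf1b (-1.14), Il15ra (-1.10), Il2ra (-1.64) and Il9r (-2.45), the last 2 below 1 TPM at both ages. Il9r lost its call without young replicate 3 or adult replicate 1 (adjusted p = 0.0546 and 0.0758).

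**Figure D4:**
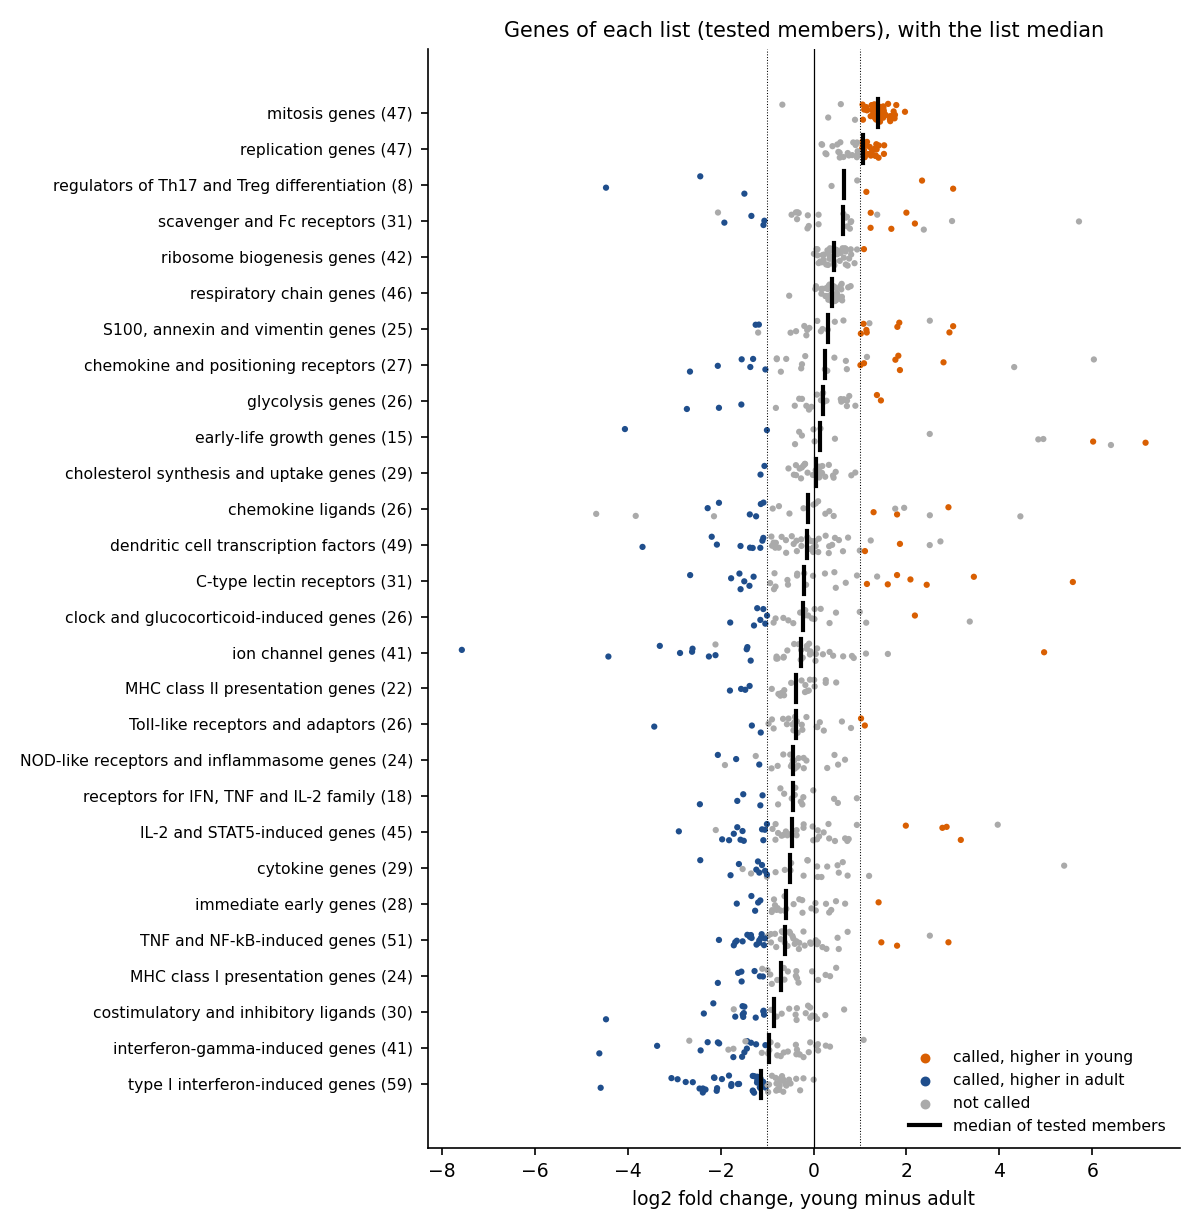
Each point is a tested gene of 1 of 28 lists (number of tested members in brackets), placed by its log2 fold change (young minus adult), with dotted lines at -1 and 1 and a black bar at the list median. Mitosis and replication genes have medians of 1.40 and 1.06, type I interferon-induced genes -1.14, and the Toll-like and C-type lectin receptor lists have called genes on both sides.

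Among 26 Toll-like receptors and adaptors, 3 were called higher in adult and 2 in young cells, near the shares of all genes, and the median was -0.38. Tlr7, the endosomal receptor for single-stranded RNA (chromosome X, 167303380-167330574), had 4.48, 2.91 and 3.40 TPM in young and 33.7, 37.3 and 35.2 TPM in adult libraries (-3.43, SE 0.14, adjusted p = 2.97e-08). It stood 10.8-fold higher in adult cells with no overlap. Tlr5, the flagellin receptor, had 6.05 ± 1.34 and 13.9 ± 0.573 TPM (-1.33), and Tlr1, the partner of TLR2 for triacylated lipopeptides, 36.9 ± 5.02 and 74.8 ± 10.4 TPM (-1.14). In the other direction went Tlr4, the lipopolysaccharide receptor, with 4.84, 4.49 and 4.45 TPM in young and 2.51, 1.46 and 1.84 TPM in adult libraries (1.10, adjusted p = 0.000354), and its adaptor Tirap (1.02). Both were near the threshold: Tlr4 lost the call without adult replicate 2 (0.95), and Tirap without young replicate 1 (0.92) or adult replicate 3 (0.95). Tlr2 (0.61) passed the adjusted p alone, and Tlr6 (-0.41, adjusted p = 0.0828) and Tlr9 (-0.24, adjusted p = 0.402) did not pass. Unc93b1, the chaperone that carries TLR7 and TLR9 to endosomes, had 468 TPM in young and 838 TPM in adult cells (-0.97).

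C-type lectin receptors split evenly, with 7 of 31 called in each direction and a median of -0.20, which was -0.32 without young replicate 2 and -0.11 without adult replicate 1. Clec7a (Dectin-1, the receptor for fungal beta-glucan) had 200, 272 and 274 TPM in young and 693, 661 and 684 TPM in adult libraries (-1.57, adjusted p = 2.44e-05). Clec4n (Dectin-2, for fungal mannans) went the opposite way, with 157, 216 and 176 TPM against 38.2, 81.7 and 46.2 TPM (1.6, adjusted p = 0.000645). Neither overlapped between the ages. Clec4a4 (DCIR2) had 108 ± 18.8 TPM in young and 259 ± 18.7 TPM in adult cells, and Ly75 (DEC-205) 3.64 and 8.76 TPM. The galactose lectins Mgl2 and Clec10a, which are close copies, had 16.6, 28.0 and 25.8 TPM and 33.0, 48.1 and 48.7 TPM in young libraries and 5.57, 5.75 and 4.64 TPM and 9.22, 14 and 11.9 TPM in adult ones. Even within the Cd209 cluster the genes diverged: Cd209d had 12.5, 25.9 and 27.4 TPM in young and 1.81, 2.32 and 1.66 TPM in adult libraries (3.45), and Cd209a 198, 234 and 230 TPM against 505, 641 and 341 TPM (-1.29). Clec4d (2.44), Clec4b2 (12, 5 and 3 counts against 0) and Klra17 (1.15) were the further young calls, and Clec1b (-2.66), Clec1a (-1.77), Clec2d (-1.59) and Ly75 (-1.38) the further adult ones.

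**Figure D5:**
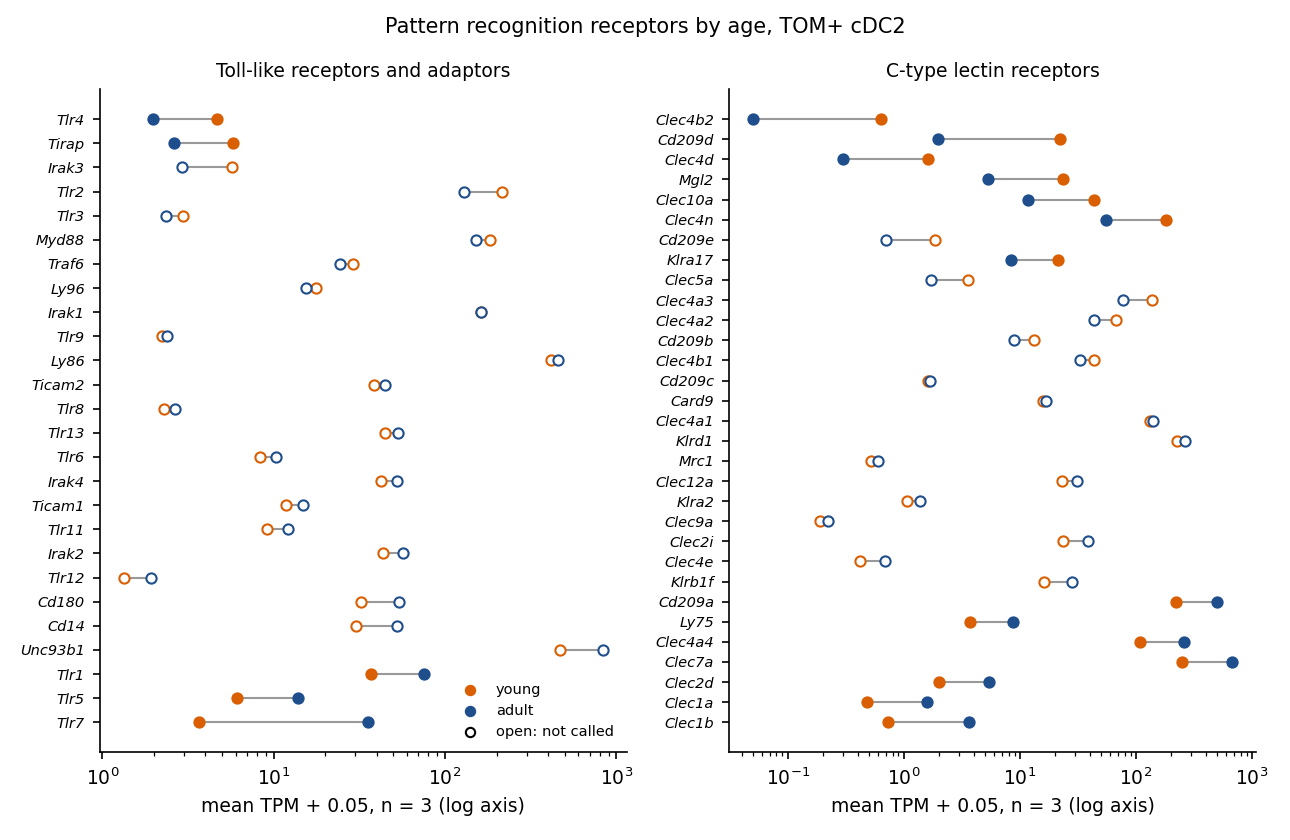
Mean TPM plus 0.05 (log axis, n = 3) of each Toll-like receptor or adaptor and each C-type lectin receptor in young (orange) and adult (blue) TOM+ cDC2, ordered by log2 fold change; filled points mark called genes. Tlr7, at 3.60 and 35.4 TPM, has the widest gap among Toll-like receptors, and the lectins have 7 called genes at either end.

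Among 24 NOD-like receptors and inflammasome genes, 3 were called, all higher in adult cells (12.5%, beside 6.86% of all genes), and the median was -0.43. They were Nlrc5, Il1b and Mefv, which encodes pyrin and had 52.8 ± 6.97 and 153 ± 20.6 TPM (-1.67). Nod1 (-0.45), Nod2 (-0.42) and Nlrp3 (-0.77) passed the adjusted p alone in the adult direction, and the adaptor Pycard (0.68) in the young direction.

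All called costimulatory and inhibitory ligands were higher in adult cells. Of 30 tested members, 13 were called higher in adult and 0 in young cells, with a median of -0.85, and 1 member, Btla, passed the adjusted p alone in the young direction (0.66, adjusted p = 0.00516). Cd80 had 47.8, 49.8 and 52.3 TPM in young and 120, 127 and 144 TPM in adult libraries (-1.51, adjusted p = 8.81e-07), a difference well beyond the spread at either age. Cd86, which binds the same receptors, had 152, 168 and 201 TPM against 197, 178 and 233 TPM, and the ages overlapped (-0.36, adjusted p = 0.0659). Cd40, through which T cells license dendritic cells, had 64.6 ± 7.41 and 126 ± 19.6 TPM (-1.08). The inhibitory ligands Cd274 (PD-L1) and Pdcd1lg2 (PD-L2) were higher as well, with 75.1 ± 14.1 and 193 ± 32.7 TPM (-1.49) and 7.44 ± 1.47 and 19.1 ± 0.372 TPM (-1.52). Tnfsf4 (OX40 ligand) had the largest fold of the list, with 0.17, 0.06 and 0.27 TPM in young and 3.61, 1.99 and 4.87 TPM in adult libraries (-4.47), followed by Cd200 (-2.36) and Cd70 (-2.16). Cd200 was highest in adult replicate 3, at 31.9 TPM against 15.7 and 15.4 TPM in the other adult libraries. Cd70 had 6, 9 and 7 counts in adult libraries and lost its call without young replicate 3 or adult replicate 2 (adjusted p = 0.0699 and 0.0664).

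Called MHC genes had the same direction. For class I, 7 of 24 genes were called higher in adult and 0 in young cells, and 17 passed the adjusted p in the adult direction, with a median of -0.71. H2-K1 had 1301, 1163 and 1126 TPM in young and 3161, 3298 and 3219 TPM in adult libraries (-1.55, adjusted p = 6.00e-08), H2-D1 1630 ± 114 and 3656 ± 316 TPM (-1.27), and B2m, the shared light chain, 5145 ± 599 and 7263 ± 606 TPM (-0.63). Class I heavy chains resemble each other, and H2-Q6 and H2-Q7 had too few uniquely placed reads to be tested. For class II, 4 of 22 were called higher in adult and 0 in young cells, with a median of -0.37. They included H2-Oa and H2-Ob, the chains of the H2-O inhibitor of peptide loading, with 424 ± 45.6 and 1008 ± 79.8 TPM (-1.38) and 111 ± 16.0 and 349 ± 8.39 TPM (-1.80). The class II chain H2-Ab1 (-0.90) and the invariant chain Cd74 (-0.63) passed the adjusted p alone.

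Secreted factors were few and mostly on the adult side. Of 29 cytokine genes, 9 were called higher in adult (31.0%, beside 6.86% of all genes) and 0 in young cells. The median was -0.50. Il12b, the shared chain of IL-12 and IL-23, had 16.4, 19.8 and 22.5 TPM in young and 45.0, 60.4 and 78.8 TPM in adult libraries (-1.79, adjusted p = 3.00e-05). Bmp2 (-2.44), Vegfa (-1.20), Ltb (-1.11), Lta (-1.23) and Il15 (-1.04) were also called, whereas Il6 (6.83 and 5.81 TPM), Il10 (0.557 and 0.543 TPM) and Il23a (0.31 and 0.173 TPM) did not pass, and Il12a was listed at 0 TPM. Chemokine ligands had 6 of 26 genes called higher in adult and 3 in young cells, with a median of -0.11, whose sign differed between settings, and -0.23 with 8 members at the floor set to their bound. Ccl3 (-1.13), Ccl4 (-1.37), Ccl5, Cxcl9, Cxcl10 (-1.24) and Cxcl16 (-1.08) were the adult calls, and Ccl6 (170 ± 25 and 63.8 ± 3.28 TPM, 1.29) joined Ccl17 and Cxcl1 in young cells. Without adult replicate 3, Lta (-0.99) and Cxcl16 (-0.84) were no longer called.

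Receptors that place cells within tissue went both ways: 6 of 27 were called in each direction, and the median was 0.24, or 0.00 with 3 members at the floor set to their bound. Ccr7, which guides dendritic cells to T cell zones, had 311, 287 and 322 TPM in young and 1550, 1493 and 2328 TPM in adult libraries (-2.66, adjusted p = 5.17e-07), a 6.32-fold difference. Cxcr5 (-2.06), Ccrl2 (-1.55), Ccr6 (-1.36), the prostaglandin receptor Ptger4 (-1.30) and Gpr132 (-1.04) shared its direction. Ccr1 (1.83) and Ccr2, with 32.8, 47.0 and 33.1 TPM against 17.1, 17.1 and 16.8 TPM (1.01), receptors for inflammatory chemokines, were called higher in young cells. P2ry14 (1.86), S1pr4 (1.76) and Ptger2 (2.80, on at most 12 counts) were called as well. Ccr2 sat at the threshold and lost the call under 7 of 17 other settings, among them those without young replicate 2 (0.79) or adult replicate 3 (0.97). Ptger2 lost it without young replicate 1 (adjusted p = 0.0523). Gpr183, which positions ESAM-high cDC2, had 141 TPM in young and 224 TPM in adult cells (-0.79).

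Genes the study named as regulators of Th17 and Treg differentiation went both ways, with 3 of 8 called in each direction. The study chose them on these samples, so that their direction is no independent evidence. The median was 0.67. Lgals1, a galectin (chromosome 15, 78926725-78930465), had 332, 396 and 359 TPM in young and 42.5, 42.0 and 38.3 TPM in adult libraries (3.01, SE 0.13, adjusted p = 3.84e-08), an 8.03-fold difference. Sema4a, a semaphorin that binds T cells, had 96.5, 113 and 100 TPM against 17.9, 18.1 and 20.1 TPM (2.34), and Lgals3 411 ± 28.3 and 172 ± 1.98 TPM (1.14). Bmp2 had 6.05, 4.94 and 4.88 TPM in young and 26.5, 22.7 and 29.9 TPM in adult libraries (-2.44), and with Tnfsf4 and Cd274 it was higher in adult cells. Aldh2 (0.94) and Il6ra (0.39) passed the adjusted p alone in the young direction.

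Among 49 dendritic cell transcription factors, 9 were called higher in adult cells (18.4%, beside 6.86% of all genes). In young cells 2 were called higher (4.08%, under the 5.96% of all genes). The median was -0.13, whose sign differed between settings. Tcf7 (15.1 ± 2.55 and 63.4 ± 14.5 TPM, -2.19), Nr4a3 (36.7 ± 6.37 and 143 ± 19.6 TPM, -2.08) and Bcl6 (46.6 ± 8.23 and 128 ± 13.8 TPM, -1.57) were higher in adult cells, as were Etv3 (-1.31), Klf2 (-1.15), Irf8 (-1.10) and Nfil3 (-1.08). Irf8 lost the call without young replicate 1 (-0.97). Maf (1.86) and Notch1 (1.11) were higher in young cells at about 1 TPM or less, and Notch1 lost the call without young replicate 1 (0.94) or adult replicate 1 (0.92). Irf4, the factor of cDC2 (-0.75), Spi1 (-0.47) and Runx3 (-0.91) passed the adjusted p alone in the adult direction, and Klf4 (-0.04), Notch2 (-0.26) and Zbtb46 (-0.13) did not pass.

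Of 8 markers of ESAM-high cDC2, 4 were called higher in adult and 0 in young cells, with a median of -0.80. Esam, an adhesion molecule, had 27.0, 15.5 and 14.4 TPM in young and 90.7, 76.8 and 72.6 TPM in adult libraries (-2.21, adjusted p = 7.16e-06). The Notch target Dtx1 (-2.02), Clec4a4 and Cd4 (-1.01) were the others, while the Notch targets Hes1 (-0.02) and Nrarp (0.26) did not pass. Cd4 lost the call without young replicate 2 (-0.89) or adult replicate 2 (-0.94). The 11 markers of ESAM-low cDC2 were divided, with 5 passing the adjusted p in each direction and a median of -0.22. Mgl2, Clec10a and Ccr2 were called higher in young cells and Csf3r (-1.28) in adult cells. Tmem176a (-0.99), Tmem176b (-0.84), Cd14 (-0.89) and Clec12a (-0.55) passed the adjusted p alone in the adult direction, and Lyz2 (-0.22) did not pass. The list summed to 2829 to 3846 TPM in young and 3751 to 4315 TPM in adult libraries. Whether the share of each population or its RNA differed cannot be told apart in these libraries.

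S100, annexin and vimentin genes, many of them binding calcium or actin, had 8 of 25 called higher in young cells (32.0%, beside 5.96% of all genes). In adult cells 2 were called higher (8.0%, near the 6.86% of all genes), and the median was 0.31. Ahnak, a large scaffold at the membrane, had 17.9, 13.1 and 18.0 TPM in young and 1.88, 1.75 and 1.52 TPM in adult libraries (2.93, adjusted p = 1.22e-07). Its partners S100a10 (374, 438 and 448 TPM against 98.5, 145 and 79.0 TPM, 1.85) and Anxa2 (567 ± 14.5 and 234 ± 14.7 TPM, 1.15) were called too, whereas S100a4 (-0.14), S100a6 (-0.20) and S100a11 (0.08) did not pass. Vim and Tagln2 lay near the threshold, at 1.08 and 1.02. Vim lost the call without young replicate 2 (0.94) or adult replicate 3 (0.84), and Tagln2 without young replicate 2 or 3 or adult replicate 1 or 3 (0.93 to 0.98).

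Scavenger and Fc receptors had 5 of 31 called higher in young (16.1%, beside 5.96% of all genes) and 4 in adult cells (12.9%, beside 6.86%). The median was 0.64, and 0.11 with 4 members at the floor set to their bound. Cd163, the haemoglobin receptor, had 5.01, 3.48 and 4.54 TPM in young and 0.57, 0.91 and 0.98 TPM in adult libraries (2.18). The phosphatidylserine receptor Timd4 (1.68) and Fcgrt, the neonatal Fc receptor (202 ± 7.79 and 79.4 ± 12.5 TPM, 1.23), were higher in young cells, and Fcgr4 (-1.34) and Fcer2a (-1.92) in adult cells. Beside these, 3 of 14 macrophage markers were called higher in young cells, Hmox1 (1.52), Slc40a1 (1.55) and Cd163, and the list summed to 382 to 412 TPM in young and 270 to 338 TPM in adult libraries. C1qa, C1qb, C1qc and Siglec1 did not pass, and the erythroid sum given above was higher in young libraries. The part of macrophage or erythroid RNA in these results was not tested.

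Ion channels were mostly on the adult side, with 11 of 41 called higher in adult cells (26.8%, beside 6.86% of all genes). The list holds Cacna1e and Ryr3 of the largest falls and was chosen with earlier results known, so its excess is no independent evidence. In young cells 1 was called higher (2.44%, beside 5.96%), and the median was -0.27. Kcnj16, a potassium channel, had 1.12, 1.17 and 1.29 TPM in young and 10.4, 10.4 and 11.9 TPM in adult libraries (-3.31, adjusted p = 8.24e-08). Scn3a (-2.87), Cacnb3 (-2.60), Cacna1s (-2.25) and the proton channel Hvcn1 (25.6 ± 8.43 and 107 ± 18.8 TPM, -2.11) followed. B lymphocyte genes were among the adult calls as well, 5 of 10, with Blk, Ms4a1 (2.46 ± 0.376 and 16.9 ± 4.51 TPM, -2.88), Cr2 (-2.58) and Fcer2a among them. Cd79a had 0.327 and 0.64 TPM, Pax5 had too few reads to be tested, Cd79b passed the adjusted p alone in the young direction (0.90), and Fcrla was called higher in young cells (1.23). The summed list overlapped, at 65.1 to 74.5 and 59.6 to 76.5 TPM.

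Immediate early genes, which respond within minutes and also to cell isolation, had 5 of 28 called higher in adult cells (17.9%, beside 6.86% of all genes). In young cells 1 was called higher (3.57%, beside 5.96%). The median was -0.60, or -0.39 without adult replicate 1. Egr3 (-1.65), Egr2 (-1.34) and Btg2 (-1.19) were called, Egr1 (-0.90) and Fos (-0.85) passed the adjusted p alone, and Ier2 (0.04) and Atf3 (-0.24) did not pass. The NF-kB targets had a median of -0.62 in the same libraries, and the part of immediate early genes in it was not tested. The 26 clock and glucocorticoid-induced genes had a median of -0.23. Of these, 7 were called higher in adult (26.9%, beside 6.86% of all genes) and 1, Cd163, in young cells (3.85%, beside 5.96%). Klf9 (1.05 ± 0.280 and 3.36 ± 0.289 TPM, -1.79), Per3 (-1.28) and the clock activator Arntl (-1.04) were among the former, and Tsc22d3 (-0.54) and Fkbp5 (-0.18) did not pass.

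Along the chromosomes, 13 runs of at least 4 neighbouring tested genes were called in 1 direction, 10 of them higher in adult cells. They included Ifit2, Ifit3 and neighbours on chromosome 19 (34550550-34662981), Gbp8, Gbp9, Gbp4 and Gbp10 on chromosome 5 (105012513-105239533), Oas2 and Oas3 with Dtx1 and Rasal1 on chromosome 5 (120648040-120777684), and Cd4 with Lag3 on chromosome 6 (124841089-124912434). On the young side stood Pilra, Pilrb1 and Pilrb2 with Zcwpw1 on chromosome 5 (137787157-137871758), and Cdc6, Rara, Top2a, Igfbp4 and Tns4 on chromosome 11 (98907709-99089306). Pilrb1 had 81 and 17.4 TPM and Pilrb2 25.8 and 9.77 TPM in young and adult cells. Gbp, Ifit and Pilr genes include close copies, and the unique-read counts behind these calls leave out reads shared between such neighbours. The Gbp run falls under 4 genes where Gbp10, with 1, 1 and 5 counts, loses its call, as it did without any 1 library other than adult replicate 3.

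The levels in young TOM- DC2 are set beside these values without a test. Lgals1 had 314, 377 and 346 TPM there, Sema4a 71.6, 79.1 and 73.1 TPM, Tlr7 7.91, 5.44 and 7.13 TPM, Oas2 8.23, 5.10 and 5.78 TPM and Ccr7 365, 393 and 504 TPM. For each of these genes the TOM- libraries lay nearer to the young than to the adult TOM+ libraries. Cd209d (3.68, 10.1 and 5.35 TPM) and Ccr6 (76.7, 41.3 and 55.0 TPM) did not: the former lay between the ages and the latter overlapped with the adult libraries.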

How the data were processed

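RNA of sorted splenic cells was amplified with SMART-seq chemistry and sequenced from 1 end. Per the labels and the study's methods, the authors aligned reads to mm10 with STAR and deposited whole-number counts per gene without normalization. They also deposited RSEM expected counts, TPM (length-corrected levels that sum to the same total in each library) and FPKM per gene for each library. FPKM and the 2 strand-specific count columns were not used, and tool versions are not given in the sources used here. The chemistry does not mark strand, so overlapping and antisense genes cannot be told apart, and the unique-read counts leave out reads shared by close copies.

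Unstranded counts were tested with edgeR 4.0.16 (R 4.3.3): TMM normalization, an average count of at least 1, and a quasi-likelihood test of young minus adult TOM+ cDC2 in a model of 3 groups, with Benjamini-Hochberg adjustment over 14452 genes. The procedure was tested on simulated data. TPM gave levels. A fold against a group at or under the floor of 3 counts per library is a lower bound. No 2 libraries of a group agreed within sampling noise (lowest chi-square per gene 8.74). Named genes were the 12 largest rises and falls with an average count of at least 50 and no overlap, the 10 largest TPM differences each way, up to 4 called members of each list per direction, genes named by the study, markers, and genes at the floor. Further list members were named after their values were seen. Members and lists were chosen with earlier results of these data known. Alternatives were DESeq2 1.42.0 size factors and test, apeglm 1.24.0, limma 3.58.1 on log2(TPM + 1) and log2(TPM + 0.1), rounded RSEM counts, other filters, the 6 TOM+ libraries alone, length offsets, a replicate block and leaving out each library. A few genes are not reported here.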

Additional observations from a re-analysis of the deposited data

How the results depend on the processing

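Across 17 other settings, 427 counts and list medians stayed near their reported value and 100 moved. Of 184 named genes that were called, 126 were called in all settings, 14 were lost with limma on log2(TPM + 1) alone and 37 without 1 library. The cause of each shift was not tested, except that shrinkage (apeglm) and a larger pseudocount reduce the log2FC of low genes by construction. With limma on log2(TPM + 1), 1122 genes were called, 619 higher in young and 503 higher in adult cells, and with log2(TPM + 0.1) 1898, of which 57.4% were higher in young cells beside 46.5% in the reported test. The latter moved the median of all genes from 0.05 to 0.17. Leaving out 1 library gave 1638 to 1868 calls. Precision rests on 3 libraries per age, and 691 called genes had an average count under 50.

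When genes under an average count of 10 were left out, the list medians were -0.81 for interferon-gamma, -0.77 for costimulation, -0.55 for chemokine ligands, -0.29 for transcription factors, 0.080 for scavenger receptors, 0.22 for S100 and annexin genes, -0.52 for ion channels and -0.39 for clock genes. The 6 TOM+ libraries alone gave -0.52 for chemokine ligands and -0.36 for clock genes, and DESeq2 gave -0.40 for chemokine ligands. With apeglm they were 0.40 for ribosome biogenesis, -0.57 for interferon-gamma, -0.56 for TNF, -0.72 for costimulation, 0.11 for chemokine receptors, -0.59 for MHC class I, 0.078 for scavenger receptors and 0.13 for S100 genes. RSEM counts gave 0.40 for ribosome biogenesis, and length offsets 0.41 for early-life growth, 0.16 for S100 and 0.30 for respiratory chain genes.

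For limma on log2(TPM + 1) and log2(TPM + 0.1), in that order, the medians were 1.17 and 1.19 for replication, 0.52 and 0.55 for ribosome biogenesis, -0.97 and -1.02 for type I interferon, -0.43 and -0.83 for interferon-gamma, -0.53 and -0.53 for TNF, -0.22 and -0.32 for IL-2, -0.31 and -0.31 for their receptors, -0.52 and -0.73 for costimulation, -0.24 and -0.24 for Toll-like receptors, -0.22 and -0.24 for NOD-like receptors, -0.21 and -0.21 for MHC class II, -0.50 and -0.58 for MHC class I, 0.79 and 0.79 for Th17 and Treg regulators, 0.018 and 0.018 for transcription factors, -0.047 and -0.11 for ion channels, 0.34 and 0.34 for glycolysis, 0.55 and 0.55 for the respiratory chain and -0.071 and -0.072 for clock genes. With log2(TPM + 1) alone, cytokines (-0.18), chemokine receptors (0.11) and scavenger receptors (0.21) moved too, and with log2(TPM + 0.1) S100 genes (0.42).

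With the number in the deposited sample names as a replicate block, 1900 genes were called, and medians moved to -0.55 for TNF, -0.35 for cytokine receptors, -0.49 for NOD-like receptors, 0.42 for scavenger receptors, 0.21 for S100 and -0.44 for ion channel genes. The ages share 2 such numbers, whose libraries had correlated deviations of 0.157 and -0.003, so the numbers were not taken to pair the ages. Young TOM+ and TOM- libraries carry the same numbers, 81, 91 and 92. Whether these came from the same animals is not given by the labels, and this pairing was not tested. The reported test takes them as separate samples in the estimate of the spread. With the 6 TOM+ libraries alone, 1808 genes were called.

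Without 1 library, medians ranged from -0.66 to -0.54 for TNF, -0.75 to -0.60 for MHC class I, -0.47 to -0.33 for MHC class II, 0.15 to 0.40 for S100, -0.40 to -0.31 for ion channels, -0.42 to 0.070 for chemokine ligands, 0.12 to 0.29 for chemokine receptors, 0.29 to 0.63 for scavenger receptors, -1.02 to -0.85 for interferon-gamma, -0.54 to -0.33 for cytokine receptors, -0.74 to -0.40 for cytokines, -0.43 to -0.22 for clock genes, -0.45 to -0.30 for Toll-like receptors and -0.29 to -0.11 for transcription factors. The sign of the chemokine ligand, transcription factor and cholesterol medians thus differed between settings (cholesterol from -0.048 without adult replicate 2 to 0.20 over all settings). The chemokine ligand median moved by over 1.5 times without any 1 library and was above 0 without adult replicate 1. A shift of that size also came from leaving out young replicate 2 (chemokine receptors 0.12, scavenger receptors 0.29), young replicate 3 (S100 genes 0.15), adult replicate 2 (clock genes -0.43) and adult replicate 3 (transcription factors -0.29), and for scavenger receptors from leaving out young replicate 3 or adult replicate 3.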
